A study of Drosophila melanogaster with 8 samples.

Results

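Non-catalytic members of the Drosophila peptidoglycan recognition protein (PGRP) family sense bacterial cell wall, or regulate its sensing, without cutting it. The 7 genes described here are PGRP-SA, PGRP-SD, PGRP-LA, PGRP-LC, PGRP-LD, PGRP-LE and PGRP-LF. They were chosen by FlyBase symbol and not by any measured value, and each was matched to 1 row of the count table, 7 of its 17713 genes. RNA was sequenced from midguts of larvae in their last instar, males and females mixed, dissected 96 hours after egg laying, to ask which processes change when Pngl is lost. Pngl encodes the fly N-glycanase, a cytosolic enzyme that removes N-glycans from misfolded glycoproteins.

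The data come from 4 genotypes, all in a y w background, with 2 libraries each and 8 in all. Pngl-/- is homozygous for the mutant allele Pngl[ex14]. Pngl Dp/+ is homozygous for the same allele and also carries 1 copy of a genomic Pngl duplication, so by label it differs from Pngl-/- by that transgene. Whether these lines also differ elsewhere in the genome is not stated, and such differences cannot be told apart from the transgene. Pngl+/- carries Pngl[ex14] over a CyO balancer chromosome with a Kr>GFP marker, which no other genotype has, so the reduced dose of Pngl and the balancer cannot be told apart in it. The y w larvae are wild type for Pngl. Guts of many larvae were pooled for each library, and the labels and the methods give different numbers of guts and different insertion sites for the duplication, so the rescue line is named here by its label only. In whole guts, fewer cells of a type and less RNA per cell cannot be told apart.

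PGRPs bind peptidoglycan, the polymer of the bacterial cell wall, and feed into the Imd and Toll pathways, whose NF-kB factors switch on antimicrobial peptide genes. In the fly gut the Imd pathway carries most of this response, set off by the form of peptidoglycan that Gram-negative bacteria make, while Toll acts mainly in fat body and blood after infection by Gram-positive bacteria and fungi. Some PGRPs are amidases that break peptidoglycan down and damp the signal, and the 7 genes here are the family members without that activity: secreted sensors, membrane and cytosolic receptors, and regulators that sit beside the receptors.

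Counts summed over genes ranged from 20414011 to 28382919 per library, and 7665 genes passed a filter on low counts (5 CPM, the read count scaled to a common library size, in 2 or more libraries). Levels below are CPM scaled with TMM factors, which allow for differences in RNA composition, and differences are log2 fold changes with standard errors (SE) from edgeR. To be called higher or lower, a gene had to differ by 1.5-fold or more with a p of 0.05 or less after Benjamini-Hochberg adjustment across the 7665 genes. Libraries of 1 genotype were not repeats of 1 library: chi-square per gene between them lay from 2.51 to 14.3, above what sampling alone gives. Pngl itself was not reduced in the libraries labelled Pngl-/-, where it stood at 58.3 and 56.7 CPM, against 21.1 and 20.7 CPM in Pngl Dp/+, 45.0 and 41.5 CPM in Pngl+/- and 33.6 and 31.4 CPM in y w. Strica, a gene that overlaps Pngl, stood at 33.0 and 31.9 CPM in the libraries labelled Pngl-/-, against 19.9 to 21.5 CPM in the controls. Whether counting was by strand is not given, so reads of Pngl and Strica may not be told apart where they overlap. The level counted for Pngl therefore does not check the labels, and the genotypes are those of the labels throughout.

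The libraries labelled Pngl-/- had more PGRP-SD and PGRP-LA than any control genotype, PGRP-SD by 4.24 to 7.82-fold and PGRP-LA by 1.68 to 2.22-fold. They also had more PGRP-SA than y w, at a level like that of Pngl+/-. The receptors PGRP-LC and PGRP-LE and the inhibitor PGRP-LF were called in none of the 3 comparisons, and PGRP-LD was near the limit of detection in all 8 libraries. Most exonic bases of PGRP-LD are shared with other genes, so its count is uncertain.

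**Figure D1:**
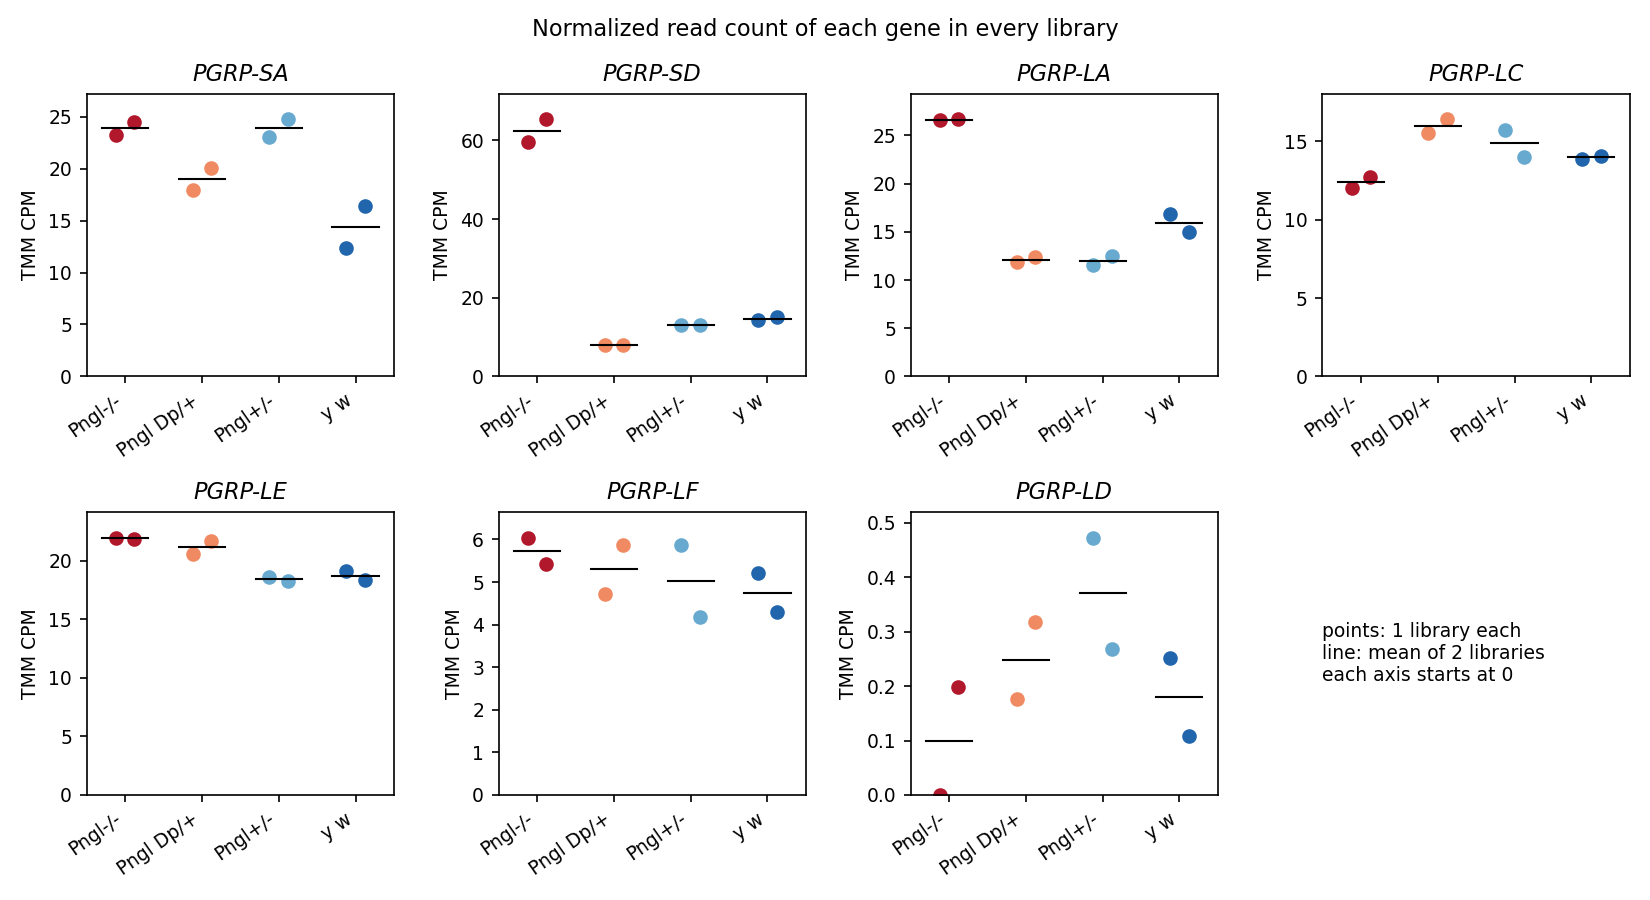
Normalized read count (TMM CPM, linear axes from 0) of the 7 genes in each library, 1 point a library and a line at the mean of the 2 libraries, for Pngl-/-, Pngl Dp/+, Pngl+/- and y w from left to right. PGRP-SD reached 59.6 and 65.4 CPM in the libraries labelled Pngl-/- and at most 15.1 CPM in a control library, PGRP-SA overlapped between Pngl-/- and Pngl+/-, and PGRP-LD was at most 0.473 CPM.

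The secreted sensors come first. PGRP-SD (FBgn0035806, dm6 chromosome 3L from 7651180 to 7651900, plus strand, a single-exon gene with 1 transcript) was first tied to the Toll pathway and is also known to bring peptidoglycan to PGRP-LC. It stood at 59.6 and 65.4 CPM in the libraries labelled Pngl-/-, 8.04 and 7.93 CPM in Pngl Dp/+, 13.1 and 13.1 CPM in Pngl+/- and 14.3 and 15.1 CPM in y w. No control library came near the libraries labelled Pngl-/-, and Pngl Dp/+ lay below the other controls without overlap. The log2 fold change of Pngl-/- was 2.97 (SE 0.08) against Pngl Dp/+, 2.25 (SE 0.07) against Pngl+/- and 2.08 (SE 0.07) against y w, with adjusted p of 1.17e-14, 3.68e-13 and 1.89e-13 from edgeR's quasi-likelihood test. Among the controls, Pngl Dp/+ had less PGRP-SD than y w (log2 fold change -0.88, SE 0.09, edgeR adjusted p = 2.82e-07) and less than Pngl+/- (-0.72, SE 0.09, edgeR adjusted p = 3.79e-06). Pngl+/- and y w were not called different in this gene (-0.17, 95% interval -0.34 to 0.01). Of the 6 tested members, PGRP-SD spanned the widest range, 8.24-fold between its lowest and its highest library. The gene shares 35 exonic bases with CG7492 on the opposite strand, which stood at 12.2 and 13.95 CPM in the libraries labelled Pngl-/- and between 14.7 and 17.6 CPM in the controls.

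PGRP-SA (FBgn0030310, chromosome X from 11561643 to 11562779, plus strand) is a circulating sensor that recognises the peptidoglycan of Gram-positive bacteria and, together with GNBP1, starts the protease cascade upstream of Toll. It stood at 23.3 and 24.4 CPM in the libraries labelled Pngl-/-, 17.9 and 20.1 CPM in Pngl Dp/+, 23.1 and 24.7 CPM in Pngl+/- and 12.4 and 16.4 CPM in y w. Pngl-/- and Pngl+/- overlapped, Pngl Dp/+ lay between them and y w, and y w was lowest with the widest gap between its libraries. The log2 fold change of Pngl-/- was 0.72 (SE 0.10) against y w, with an edgeR adjusted p of 1.10e-05, and PGRP-SA was called higher there. Against Pngl+/- the difference was 0.00 (95% interval -0.21 to 0.21), and against Pngl Dp/+ it was 0.32 (SE 0.10, edgeR adjusted p = 0.00813), under the 1.5-fold limit, and -0.02 without composition normalization. Pngl+/- itself was higher than y w by the same 0.72 (SE 0.10, edgeR adjusted p = 1.44e-05). Both calls turn on y w replicate 1. Without that library the log2 fold changes were 0.57 for Pngl-/- and 0.53 for Pngl+/- against y w, and neither was called. Against y w, the calls were also lost without composition normalization (0.34 for Pngl-/- and 0.36 for Pngl+/-) and in a test against a 1.5-fold change. Without y w replicate 2, Pngl Dp/+ was called higher than y w as well, at 0.62.

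Neither receptor gene was called in Pngl-/- against any control. PGRP-LC (FBgn0035976, chromosome 3L from 9338810 to 9348336, plus strand, 10 annotated transcripts) encodes the transmembrane receptor that starts Imd signalling, and its splice forms differ in the extracellular domain that meets peptidoglycan. Gene-level counts add these forms together. It stood at 12.03 and 12.72 CPM in the libraries labelled Pngl-/-, 15.5 and 16.4 CPM in Pngl Dp/+, 15.7 and 14.0 CPM in Pngl+/- and 13.9 and 14.1 CPM in y w. The libraries labelled Pngl-/- were the lowest of the 8, without overlap. The log2 fold change was -0.37 (SE 0.08, edgeR adjusted p = 0.000687) against Pngl Dp/+, -0.27 (SE 0.09, edgeR adjusted p = 0.0142) against Pngl+/- and -0.18 (SE 0.08, edgeR adjusted p = 0.0652) against y w. All of these were under the 1.5-fold limit, and none was called. The difference from y w turned to 0.03 with TMM factors taken from all genes, and without composition normalization the difference from Pngl Dp/+ was -0.71 and was called lower.

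PGRP-LE (FBgn0030695, chromosome X from 15801153 to 15803880, minus strand) encodes a receptor that senses small peptidoglycan fragments inside the cell and is a main Imd sensor in much of the midgut. It stood at 21.97 and 21.86 CPM in the libraries labelled Pngl-/-, 20.6 and 21.7 CPM in Pngl Dp/+, 18.6 and 18.2 CPM in Pngl+/- and 19.1 and 18.3 CPM in y w. The libraries labelled Pngl-/- were the highest, by a margin over Pngl Dp/+ smaller than the gap between the 2 Pngl Dp/+ libraries. The log2 fold change was 0.05 (95% interval -0.09 to 0.19) against Pngl Dp/+, 0.25 (0.09 to 0.40) against Pngl+/- and 0.23 (0.08 to 0.37) against y w, so that none reached 1.5-fold. Without composition normalization the values against Pngl Dp/+ and y w were -0.30 and -0.16, so no direction can be given for PGRP-LE in these 2 comparisons. Across the 8 libraries it varied the least of the 6 tested genes, 1.20-fold from lowest to highest.

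The regulators lie beside the receptor gene. PGRP-LA (FBgn0035975, chromosome 3L from 9334332 to 9338336, plus strand, 5 annotated transcripts) is thought not to bind peptidoglycan and promotes Imd signalling in barrier epithelia such as the airway. It stood at 26.6 and 26.7 CPM in the libraries labelled Pngl-/-, 11.9 and 12.4 CPM in Pngl Dp/+, 11.6 and 12.5 CPM in Pngl+/- and 16.9 and 14.96 CPM in y w. The libraries labelled Pngl-/- lay well above all controls, y w lay above the other controls, and Pngl Dp/+ and Pngl+/- overlapped. The log2 fold change of Pngl-/- was 1.13 (SE 0.07) against Pngl Dp/+, 1.15 (SE 0.08) against Pngl+/- and 0.75 (SE 0.07) against y w, with adjusted p of 1.86e-09, 5.59e-09 and 1.16e-07 from edgeR's quasi-likelihood test. Without composition normalization, which moved the median of all genes by -0.386 in that comparison, the value against y w was 0.36 and was not called. Among the controls, the difference from y w was -0.38 (SE 0.08, edgeR adjusted p = 0.000669) in Pngl Dp/+ and -0.40 (SE 0.08, edgeR adjusted p = 0.000442) in Pngl+/-, both under 1.5-fold.

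PGRP-LF (FBgn0035977, chromosome 3L from 9349609 to 9351489, plus strand, 1 transcript) encodes a membrane protein that does not bind peptidoglycan and holds PGRP-LC in check. It stood at 6.04 and 5.41 CPM in the libraries labelled Pngl-/-, 4.73 and 5.86 CPM in Pngl Dp/+, 5.86 and 4.19 CPM in Pngl+/- and 5.21 and 4.29 CPM in y w. The libraries labelled Pngl-/- overlapped Pngl Dp/+ and Pngl+/- and lay above both y w libraries by less than the gap between those 2. The log2 fold change was 0.09 (95% interval -0.26 to 0.45) against Pngl Dp/+, 0.18 (-0.20 to 0.56) against Pngl+/- and 0.28 (-0.09 to 0.64) against y w, so that no difference was detectable at this depth, and without composition normalization the values against Pngl Dp/+ and y w were -0.25 and -0.11. The interval against y w reaches past a 1.5-fold difference. Exons of PGRP-LF share 602 bases with UGP on the opposite strand, and UGP lay between 18.3 and 25.1 RPKM (reads per kilobase of exon, scaled as CPM), where PGRP-LF lay between 3.09 and 4.46 RPKM. The sources used here do not say whether counting was by strand, so reads of the 2 genes in the shared stretch cannot be told apart. UGP was not called in any of the 6 comparisons.

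PGRP-LD (FBgn0260458, chromosome 3L from 5780051 to 5784685, plus strand) did not pass the filter on low counts. Its reads numbered 0 and 4 in Pngl-/-, 4 and 10 in Pngl Dp/+, 10 and 5 in Pngl+/- and 6 and 3 in y w. In CPM the libraries labelled Pngl-/- overlapped Pngl Dp/+ and y w and lay below Pngl+/-, at counts of 10 or fewer throughout. Where 0 reads were counted, a level of up to 0.136 CPM of the library total is allowed by counting error. In a fit without the filter, none of the 6 comparisons called it, and the smallest adjusted p of edgeR's quasi-likelihood test was 0.103 (unadjusted 0.0432), for Pngl-/- against Pngl+/-. Most of the exonic sequence of PGRP-LD is shared: 3563 of its 3957 exonic bases with Pmi on the same strand, 1323 with Cralbp and 510 with asRNA:CR45026 on the opposite strand. Pmi was listed at 0 in all 8 libraries and Cralbp lay between 1.02 and 1.85 CPM, so the count of PGRP-LD is uncertain.

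**Figure D2:**
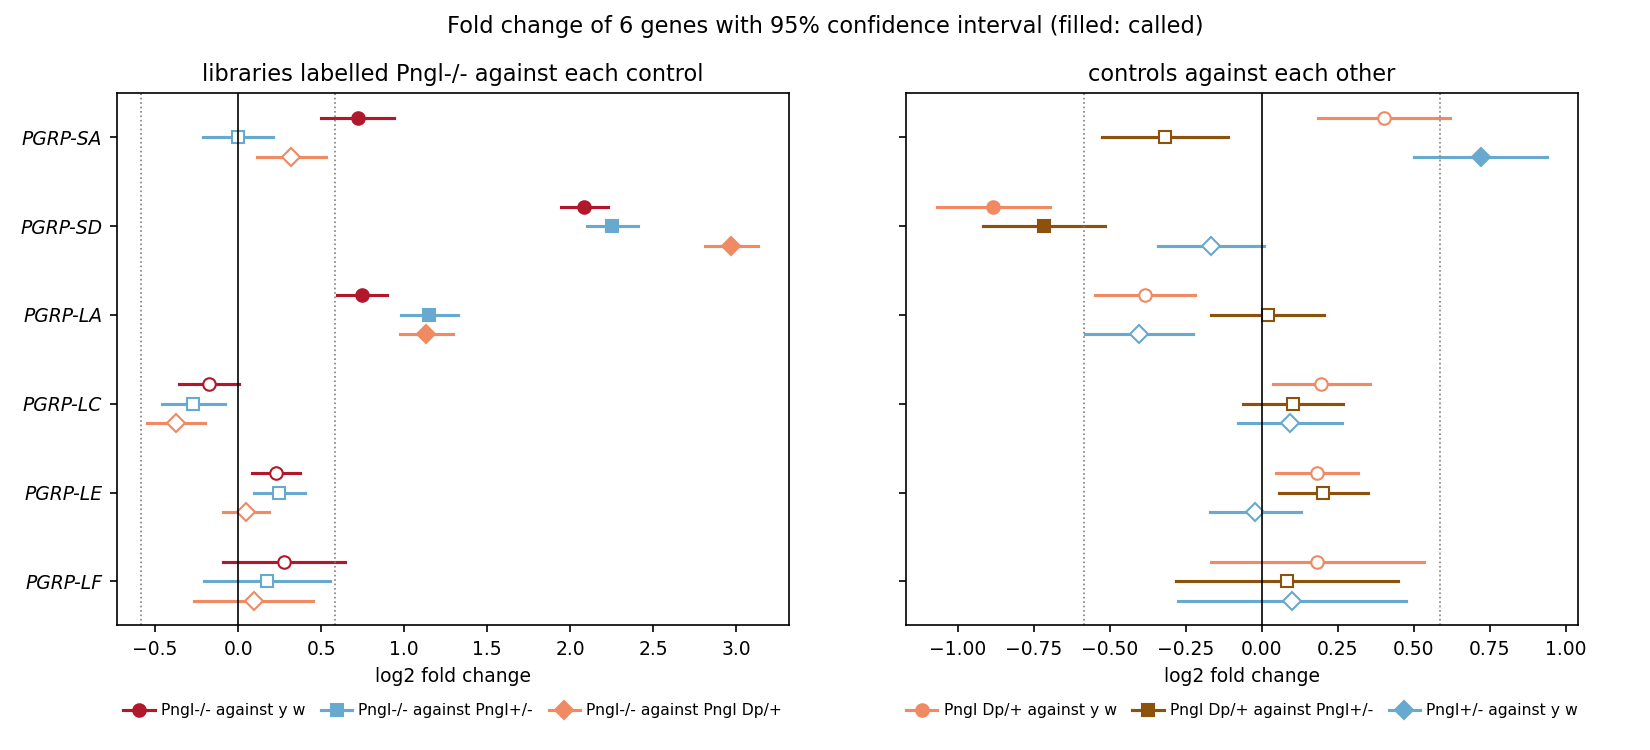
Log2 fold change with 95% confidence interval from the edgeR fit for the 6 tested genes, with Pngl-/- against each control on the left and the controls against each other on the right. Filled symbols mark calls and dotted lines a 1.5-fold difference. PGRP-SD and PGRP-LA were called in all 3 comparisons on the left, from 2.08 to 2.97 and from 0.75 to 1.15, whereas PGRP-LC lay from -0.37 to -0.18 and was not called, its value against y w turning to 0.03 with TMM factors from all genes.

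Set against the whole table, the members' counts read as follows. Against Pngl Dp/+, 2 of the 6 tested genes were called higher in Pngl-/- and 0 lower, where 12.1% of all tested genes were higher and 22.2% lower. Against Pngl+/-, 2 were higher and 0 lower, beside 7.58% and 13.1% of all genes. Against y w, 3 were higher and 0 lower, beside 17.9% and 24.4% of all genes. PGRP-SD and PGRP-LA were higher in all 3 comparisons, 2 of 6 where 4.03% of all genes were, and none of the 6 was lower in all 3, where 8.51% of all genes were. These 3 comparisons share the libraries labelled Pngl-/-.

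For the counts of 0, the unadjusted p of edgeR's quasi-likelihood test was under 0.05 and the value negative for 1 of the 6 genes against Pngl Dp/+ and 1 against Pngl+/-, PGRP-LC both times, and for 0 against y w. DESeq2 also called 0 lower in each. The median log2 fold change over the 6 genes was 0.21 against Pngl Dp/+, 0.21 against Pngl+/- and 0.50 against y w, beside medians over all genes of -0.02, -0.05 and -0.01. Both libraries labelled Pngl-/- lay above all 6 control libraries for 3 of the 6 genes, PGRP-SD, PGRP-LA and PGRP-LE, and below all 6 for 1, PGRP-LC. Over all tested genes these shares were 23.6% and 28.0%, so the absence of overlap alone is common in these libraries.

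The controls also differed from each other. In Pngl Dp/+ against y w, PGRP-SD was the 1 gene of 6 called lower, beside 5.68% of all genes, and 0 were higher, beside 6.78%. PGRP-SD was also the 1 gene lower in Pngl Dp/+ than in Pngl+/-, beside 7.91% of all genes, and 0 were higher, beside 14.0%. PGRP-SA was the 1 gene higher in Pngl+/- than in y w, beside 13.0%, and 0 were lower, beside 17.5%. For these counts of 0, DESeq2 also made no call, and edgeR's unadjusted p was under 0.05 in that direction for 3, 1 and 1 of the genes. The Pngl Dp/+ call against Pngl+/- did not hold without composition normalization (PGRP-SD -0.40) or in a test against a 1.5-fold change, and without composition normalization the 1 gene called in Pngl+/- against y w was PGRP-LA, lower at -0.77, in place of PGRP-SA.

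PGRP-LA, PGRP-LC and PGRP-LF lie next to each other on chromosome 3L, in this order and on the same strand, with 473 bases between PGRP-LA and PGRP-LC and 1272 bases between PGRP-LC and PGRP-LF. A ratio of reads from 2 genes of 1 library does not depend on any scaling between libraries, so the 3 neighbours were compared in this way, with the pairs of genes chosen after their values were seen. For 1 read of PGRP-LC there were 2.21 and 2.10 of PGRP-LA in the libraries labelled Pngl-/-, 0.764 and 0.755 in Pngl Dp/+, 0.736 and 0.889 in Pngl+/-, and 1.22 and 1.06 in y w. In the libraries labelled Pngl-/- the exact binomial 95% intervals, 1.89 to 2.595 and 1.80 to 2.44, did not reach those of any control library, the highest of which ended at 1.41.

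The ratio of PGRP-LC to PGRP-LF, the receptor to its inhibitor, was 1.99 and 2.35 in the libraries labelled Pngl-/-, 3.28 and 2.80 in Pngl Dp/+, 2.69 and 3.35 in Pngl+/- and 2.66 and 3.29 in y w. The libraries labelled Pngl-/- held the lowest values, but their intervals, 1.59 to 2.51 and 1.87 to 2.97, overlapped those of all 3 controls. For PGRP-SD over PGRP-LC, the sensor over the receptor it serves, the ratio was 4.95 and 5.14 in the libraries labelled Pngl-/-, 0.519 and 0.483 in Pngl Dp/+, 0.835 and 0.935 in Pngl+/- and 1.03 and 1.07 in y w. The intervals of the libraries labelled Pngl-/- met those of no control library. A ratio of reads is compared between libraries only, since the genes differ in length. The intervals cover counting error only, since reads were counted without molecular identifiers.

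**Figure D3:**
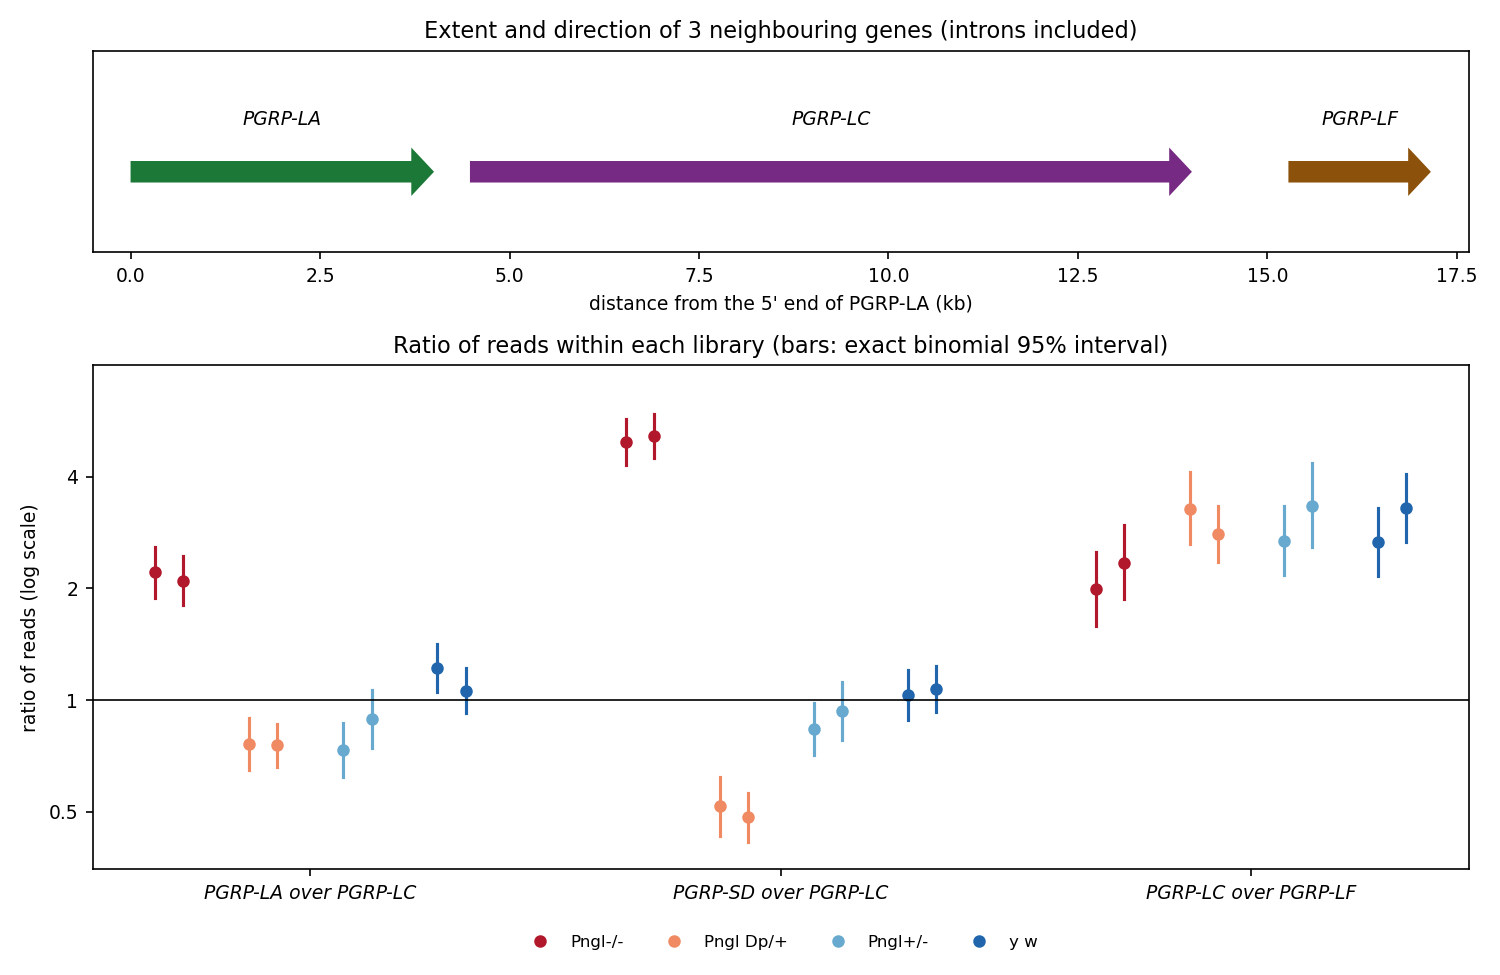
Top, extent and direction of PGRP-LA, PGRP-LC and PGRP-LF along chromosome 3L, as distance in kb from the 5′ end of PGRP-LA. Bottom, ratio of reads within each library on a log axis for 3 pairs of genes, 1 point a library with its exact binomial 95% interval. PGRP-LA over PGRP-LC was 2.21 and 2.10 in the libraries labelled Pngl-/- and at most 1.22 in a control library.

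To set the level of one gene against another, reads were divided by exon length. In the libraries labelled Pngl-/- the order was PGRP-SD (86.6 ± 5.7 RPKM, SD, n = 2), PGRP-SA (23.4 ± 0.81), PGRP-LA (12.7 ± 0.02), PGRP-LE (10.6 ± 0.04), PGRP-LF (4.23 ± 0.33), PGRP-LC (3.31 ± 0.13) and PGRP-LD, and no neighbours in it overlapped. In Pngl Dp/+ the order was PGRP-SA (18.7 RPKM), PGRP-SD (11.1), PGRP-LE (10.2), PGRP-LA (5.78), PGRP-LC (4.27), PGRP-LF (3.91) and PGRP-LD. Pngl+/- had the same order as Pngl Dp/+, headed by PGRP-SA at 23.5 RPKM and PGRP-SD at 18.2 RPKM. In y w, PGRP-SD (20.4 RPKM) was above PGRP-SA (14.1), and the rest followed as in the other controls. In each control the libraries of PGRP-LC and PGRP-LF overlapped, and no other neighbours did. PGRP-LF shares 602 of its 1355 exonic bases with UGP, and PGRP-LD 3563 of 3957 with Pmi. The places of these 2 genes in the order are therefore uncertain.

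Reads of the 7 genes added to 2871 in Pngl-/- replicate 1 and 3154 in replicate 2, or 149.5 and 156.7 CPM, against 78.8 to 88.5 CPM in the 6 control libraries. PGRP-SD made up 39.8% and 41.7% of these reads in the libraries labelled Pngl-/-, 10.2% and 9.36% in Pngl Dp/+, 14.9% and 15.1% in Pngl+/- and 17.5% and 18.1% in y w. The share of PGRP-LE was 14.7% and 14.0% in the libraries labelled Pngl-/- and between 21.0% and 26.1% in the controls. A share falls when another gene of the sum is higher, so the order of the shares does not give the order of the levels.

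Over the 8 libraries, log2 CPM of PGRP-SD and PGRP-LA ran together (Pearson r = 0.951) and opposite to PGRP-LC (r = -0.900 for PGRP-SD and -0.901 for PGRP-LA). PGRP-SA was weakly related to each of the other 5 genes, with r from -0.174 to 0.400. These are descriptions over 8 libraries of 4 genotypes, in which pairs of libraries share a genotype and the libraries labelled Pngl-/- stand apart. The tested genes outside the family that ran closest to PGRP-SD were RpL7A, a ribosomal protein gene (r = 0.998), cpa, a subunit of actin capping protein (0.997), and CG43774 (0.996). For PGRP-LA they were nudC (0.995), CG15533 (0.992) and CG10086 (0.992), and for PGRP-LE Krn, a ligand of the EGF receptor (0.994), Vps4 (0.977) and Syx8 (0.974). For PGRP-LC they were CG30288 (0.971), CaMKI, a calcium-dependent kinase (0.969), and Atpalpha, a sodium pump subunit (0.953). For PGRP-SA they were PGAP5 (0.977), CG9471 (0.971) and CG42656 (0.968), and for PGRP-LF, where r was lowest, MICU3 (0.914), CG5188 (0.879) and Nadsyn (0.859).

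The patterns differ in size as well as in shape. RpL7A, for example, stood at 1740 and 1748 CPM in the libraries labelled Pngl-/-, against 1080 to 1231 CPM in the controls, a far smaller difference than that of PGRP-SD. CG15533 stood at 379 and 381 CPM in the libraries labelled Pngl-/-, against 51.5 to 117 CPM in the controls, a larger one than that of PGRP-LA. As for PGRP-LA, its 2 y w libraries were the highest of the controls.

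Around the 7 genes, the other recognition genes split. Against Pngl Dp/+, 12.1% of all tested genes were higher in Pngl-/- and 22.2% lower. The shares were 7.58% and 13.1% against Pngl+/-, and 17.9% and 24.4% against y w. Of 5 tested amidase PGRPs, against Pngl Dp/+ 1 was higher and 3 lower in Pngl-/-, 1 higher and 0 lower than in Pngl+/- (0 by DESeq2, and 3 with an unadjusted edgeR p under 0.05), and 1 higher and 1 lower than in y w, and none was called in the same direction in all 3. PGRP-SC1b and PGRP-SC1a, near-identical copies whose reads the counting may have divided, had log2 fold changes of -1.32 and -1.24 against Pngl Dp/+, both called lower by edgeR with adjusted p of 1.37e-11 and 1.67e-11. Against Pngl+/- the values were -0.24 and -0.23, not called. Against y w they were -1.29, called lower, and -0.27, not called. PGRP-SB1 was called higher against Pngl Dp/+ (1.93) and Pngl+/- (0.73), and was 0.38 against y w, not called. PGRP-SC2 was -0.74 against Pngl Dp/+, called lower, -0.35 against Pngl+/-, not called, and 1.64 against y w, called higher. The amidase genes summed to 2391 and 2451 CPM in Pngl Dp/+, 1160 and 1204 CPM in the libraries labelled Pngl-/-, and 1325 to 1519 CPM in the other controls. PGRP-LB, which removes peptidoglycan that could reach PGRP-LC, stayed between 0.46 and 0.50 in all 3 comparisons and was not called. Of 3 tested genes of the GNBP family, 2 passed the filter without the libraries labelled Pngl-/-. In Pngl-/-, 1 was lower against Pngl Dp/+ and 2 against y w. Against Pngl+/-, 0 were lower (0 by DESeq2, and 2 with an unadjusted edgeR p under 0.05). GNBP1, the partner of PGRP-SA, had log2 fold changes of -0.40, -0.43 and -0.65 in this order and was called lower against y w. GNBP3, a sensor of fungal glucan, had -1.07, -0.39 and -0.98 and was called lower against Pngl Dp/+ and y w. GNBP-like3 had 158 reads in Pngl-/- replicate 1 and 175 in replicate 2, against 3 to 24 reads in the control libraries. It passed the filter only through the libraries labelled Pngl-/-, so that its higher level was fixed by the filter and its calls are not counted.

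Between receptors and peptides lie the signalling genes. Their counts stand beside 12.1% of all genes higher and 22.2% lower in Pngl-/- against Pngl Dp/+. Against Pngl+/- these shares were 7.58% and 13.1%, and against y w 17.9% and 24.4%. Of 13 tested genes of Imd signalling, none was called in Pngl-/- against Pngl Dp/+, and 1 was higher in each of the other comparisons, Rel, the NF-kB factor of the pathway, against Pngl+/- (0.77) and Fadd, an adaptor, against y w (0.73). Against Pngl Dp/+ edgeR's unadjusted p was under 0.05 for 6 genes with positive and 3 with negative values, and DESeq2 called 0. No gene of this group was called lower, by edgeR or DESeq2, with unadjusted p under 0.05 and a negative value for 5 against Pngl+/- and 1 against y w. Of 11 tested Imd inhibitors, 3 were higher and 2 lower than in Pngl Dp/+, 2 higher and 0 lower than in Pngl+/- (0 by DESeq2, and 3 with an unadjusted edgeR p under 0.05), and 2 higher and 4 lower than in y w. The POU factor nub was the 1 inhibitor higher in all 3, at 29.8 and 31.2 CPM in the libraries labelled Pngl-/- against 15.7 to 20.9 CPM in the controls. The inhibitor pirk, which acts on PGRP-LC, was 0.62, 0.59 and 0.12 against Pngl Dp/+, Pngl+/- and y w, and was called in the first 2.

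Of 21 tested genes of the Toll pathway, 1 was higher in Pngl-/- in each comparison, while 3 were lower against Pngl Dp/+, 2 against Pngl+/- and 5 against y w. Of all tested genes, 12.1%, 7.58% and 17.9% were higher in these comparisons, and 22.2%, 13.1% and 24.4% lower. SPE, the protease that cuts the Toll ligand, was higher in all 3, at 15.98 and 14.9 CPM in the libraries labelled Pngl-/- against 4.65 to 9.41 CPM in the controls. The ligand spz was lower in all 3, at 4.37 and 3.92 CPM in the libraries labelled Pngl-/- against 6.60 to 8.55 CPM in the controls. These lists were chosen with results of these data known, and their counts stand beside the shares of all genes given above.

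The antimicrobial peptide genes are the output of both pathways. Of 14 peptide genes known as Imd targets, 13 were higher in Pngl-/- than in Pngl Dp/+ and 0 lower (0 by DESeq2, and 0 with an unadjusted edgeR p under 0.05). Of the same genes 7 were higher and 2 lower against Pngl+/-, and 9 higher and 1 lower against y w. Those lower were AttC (-1.39) and DptA (-0.76) against Pngl+/-, and AttC (-1.97) against y w. Among all tested genes, 12.1%, 7.58% and 17.9% were higher against Pngl Dp/+, Pngl+/- and y w, and 22.2%, 13.1% and 24.4% lower. The median log2 fold changes were 3.40 against Pngl Dp/+, 0.69 against Pngl+/- and 1.17 against y w. Their summed level was 563 and 567 CPM in the libraries labelled Pngl-/-, against 93.1 and 96.3 CPM in Pngl Dp/+, 431 and 438 CPM in Pngl+/- and 382 and 394 CPM in y w. As for PGRP-SD, Pngl Dp/+ was the lowest of the controls. There 11 of the 14 were lower than in y w and 12 lower than in Pngl+/-, beside 5.68% and 7.91% of all genes. The gene edin stood at 33.4 and 31.0 CPM in the libraries labelled Pngl-/-, against 0.574 to 4.21 CPM in the controls, and CecA2 at 24.8 and 24.9 CPM, against 0.884 to 9.40 CPM. Of 15 peptide genes known as Toll targets, 5 passed the filter, and 4 of these passed only through the libraries labelled Pngl-/-, so that their higher level was fixed by the filter and no count of calls is given. The summed level over all 15 was 163 and 168 CPM in the libraries labelled Pngl-/-, against 13.5 to 33.5 CPM in the controls. BomS1 and BomS3, the members named by the rule, stood at 29.6 and 30.95 CPM and at 27.96 and 28.7 CPM in the libraries labelled Pngl-/-, against at most 2.27 and 4.49 CPM in a control library, and both are among these 4. Of the Imd targets, edin alone passed the filter in this way. The counts of Imd targets higher in Pngl-/-, and their medians, therefore include a gene whose higher level was fixed by the filter.

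**Figure D4:**
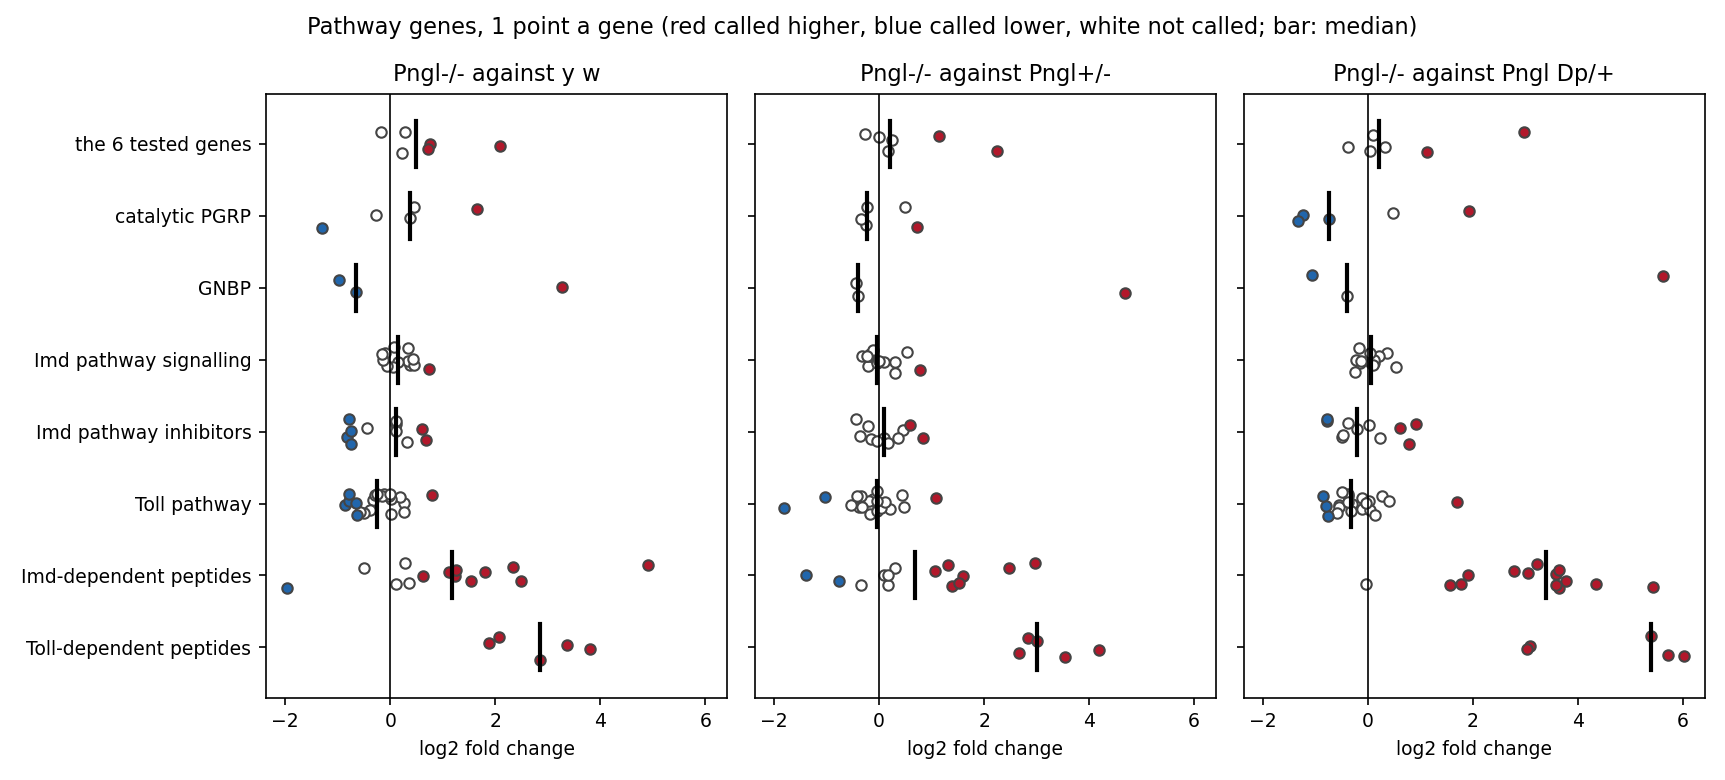
Log2 fold change of every tested gene of 8 groups, with a panel for Pngl-/- against each control, 1 point a gene, red where called higher, blue where called lower, white where not called, with a bar at the median. Medians of the 6 PGRP genes were 0.50, 0.21 and 0.21 from the left panel to the right, and those of the 14 peptide genes known as Imd targets were 1.17, 0.69 and 3.40. Among the points, edin, GNBP-like3 and 4 of the 5 Toll targets passed the filter only through the libraries labelled Pngl-/-. Their higher level was fixed by the filter, and the medians of the Imd targets include edin.

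Because secreted PGRPs are also made by fat body and blood cells, markers of these and other tissues were read in the same libraries. Midgut markers were plentiful, with a summed level of 61310 and 64460 CPM in the libraries labelled Pngl-/- and 44390 to 57930 CPM in the controls, and none of the markers read was at 0 in a library. The 9 fat body markers summed to 24890 and 24960 CPM in the libraries labelled Pngl-/-, 34640 and 35960 CPM in Pngl Dp/+, 51690 and 53980 CPM in Pngl+/- and 31420 and 31800 CPM in y w. Of these, 6 were lower in Pngl-/- than in Pngl Dp/+, 7 than in Pngl+/- and 5 than in y w, and 0 higher in each (0 by DESeq2, with an unadjusted edgeR p under 0.05 for 0, 1 and 1). Of 12 tested midgut markers, 3, 5 and 7 were higher in Pngl-/- than in Pngl Dp/+, Pngl+/- and y w. In the same order, 12.1%, 7.58% and 17.9% of all tested genes were higher, and 22.2%, 13.1% and 24.4% lower. The 11 hemocyte markers summed to 447 CPM in both libraries labelled Pngl-/- and to 496 to 725 CPM in the controls, and of 10 tested, 8 were lower and 1 higher in Pngl-/- against Pngl Dp/+, 7 and 0 against Pngl+/- (0 higher by DESeq2, and 1 with an unadjusted edgeR p under 0.05) and 5 and 1 against y w. Both sums were lowest in the libraries labelled Pngl-/- and highest in Pngl+/-, but markers of a list did not all move alike. In Pngl+/- against y w, 4 of the 9 fat body markers were higher and 4 lower. Of 10 hemocyte markers, 4 were higher and 2 lower there, beside 13.0% and 17.5% of all genes. Any part of these tissues in the levels of PGRP-SD, PGRP-LA and PGRP-SA was not tested.

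Markers of other tissues were summed in the same way. Visceral muscle markers summed to 3516 and 3572 CPM in the libraries labelled Pngl-/- and 3456 and 3485 CPM in Pngl+/-, but to 6442 and 6519 CPM in Pngl Dp/+ and 6272 and 6435 CPM in y w. Salivary gland markers summed to 3832 and 3962 CPM in the libraries labelled Pngl-/-, 7381 and 7527 CPM in Pngl Dp/+, 7112 and 7277 CPM in Pngl+/- and 4005 and 4089 CPM in y w. Trachea and cuticle markers, from a tissue in which PGRP-LA acts, summed to 124 and 125 CPM in the libraries labelled Pngl-/- and to 177 to 380 CPM in the controls. Malpighian tubule markers summed to 219 and 224 CPM in the libraries labelled Pngl-/- and 141 to 220 CPM in the controls, enteroendocrine markers to 182 and 183 CPM, against 129 to 172 CPM, and 3 progenitor markers to 25.3 and 27.3 CPM, against 25.4 to 41.3 CPM. The progenitor markers esg and Dl were not matched to a row of the counts, so this last sum lacks them. Of 9 enteroendocrine markers, 5, 2 and 5 were called higher in Pngl-/- than in Pngl Dp/+, Pngl+/- and y w. In each comparison 1 was called lower, pros. Of all tested genes, 12.1%, 7.58% and 17.9% were higher there, and 22.2%, 13.1% and 24.4% lower. The gene pros stood at 2.29 and 2.09 CPM in the libraries labelled Pngl-/-, against 4.61 to 18.3 CPM in the controls. The part of these differences in the levels of the 7 genes was not tested.

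**Figure D5:**
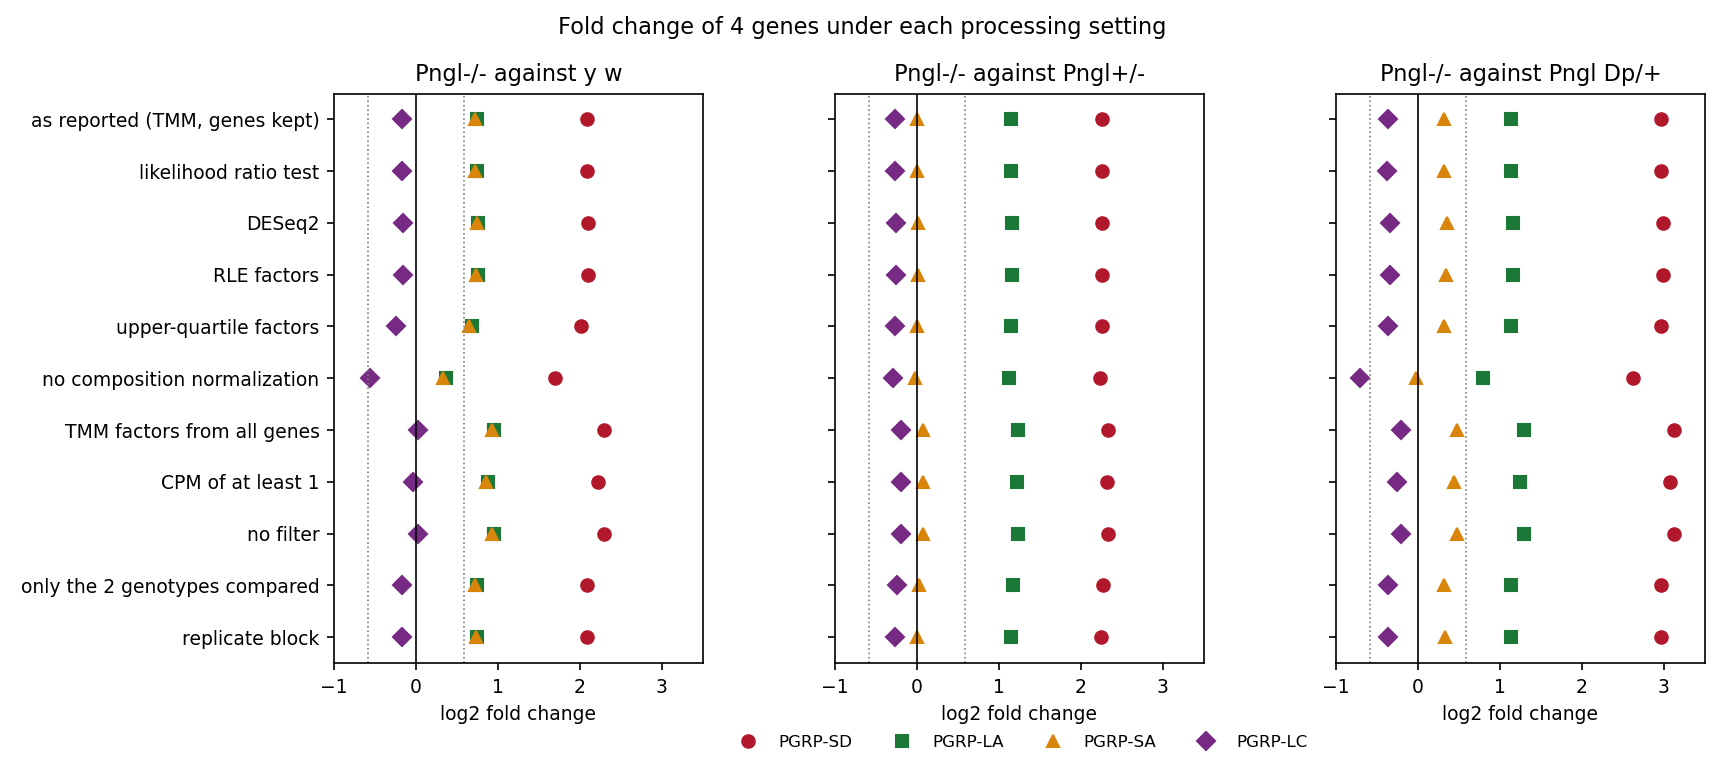
Log2 fold change of PGRP-SD, PGRP-LA, PGRP-SA and PGRP-LC under 11 processing settings, with a panel for Pngl-/- against each control and dotted lines at a 1.5-fold difference. PGRP-SD stayed between 1.70 and 3.13 in all of them, whereas without composition normalization PGRP-LA was 0.36 and PGRP-SA 0.34 against y w, and PGRP-LC, which lay below 0 in most, was 0.03 against y w with TMM factors from all genes.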

How the data were processed

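RNA of larval midguts was prepared with a stranded mRNA kit and sequenced in paired-end mode. The authors used cutadapt for trimming and STAR for alignment to dm6, and totalled reads over exons for the genes of a FlyBase annotation. The deposited values are raw counts per gene as the authors made them, with no scaling or filter. The use of strand and of multiply aligned reads is not given in the sources used here, and the cutadapt version differs between the submitters' processing notes and the methods.

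Symbols and positions were looked up in an Ensembl annotation of the dm6 assembly, which held 17582 of the 17713 rows. The counts were fitted with edgeR 4.0.16 (R 4.3.3) over all 8 libraries, 1 mean per genotype, with the quasi-likelihood test. Genes needed 5 CPM or more in 2 libraries, and TMM factors, from 0.873 to 1.16, were computed on the 7665 genes kept. A call needed a 1.5-fold difference and an adjusted p, by Benjamini and Hochberg, no larger than 0.05. RPKM is TMM CPM per kilobase of annotated exon, and log2 CPM for correlations had a prior count of 2. The spread was shared over the genotypes (common dispersion 0.00194), and with 2 libraries each, described as biological replicates in the methods, tests and intervals reach no further than these libraries. Python 3.11.15 and scipy 1.17.1 gave ratios and intervals. The test was tried on simulated counts with known changes.

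Alternatives were DESeq2 1.42.0, the likelihood ratio test, other scaling factors (RLE, upper quartile, none, TMM from all genes), a minimum of 1 CPM or no filter, fitting only the genotypes compared, a block for replicate number, testing against 1.5-fold, and dropping each library once. A genotype left with 1 library was assumed to vary like the others. Genes, lists and tests were chosen with earlier results of these data known, and the lists hold genes reported as changed in these libraries. Named genes are the 7 members, the 3 genes most like each tested member, and from each list at most the 2 with the largest mean absolute change among those called in all 3 comparisons. Tissue markers are given as sums, with calls for midgut, fat body, hemocyte and enteroendocrine markers, and not gene by gene apart from pros. GNBP1 and GNBP3 were named after their values were seen. The amidases, Rel, Fadd, pirk, AttC and DptA were named after their values were seen.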

Additional observations from a re-analysis of the deposited data

How the results depend on the processing

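The 36 fold changes of the 6 tested genes were recomputed under each alternative. With all libraries kept, 374 of 402 values held their direction and side of the threshold, 7 lost a call, 2 gained one and 19 changed sign, however close to 0 they lay. PGRP-SD was called higher in Pngl-/- than in each control under every one of these settings, and with each library left out. Without composition normalization the median of all genes moved by -0.386 for Pngl-/- against y w and by -0.343 against Pngl Dp/+, and 1 gene in place of 3 was called against y w and 1 in place of 2 was higher than in all 3 controls. Over all genes, 537 were then higher and 3023 lower in Pngl-/- than in y w, against 1375 and 1867 as reported. Pngl Dp/+ against Pngl+/- had 0 calls under that setting and 0 in the test against a 1.5-fold change, which also left 0 for Pngl+/- against y w.

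Values that changed sign without composition normalization were PGRP-SA -0.0225, PGRP-LE -0.2961 and PGRP-LF -0.2478 in Pngl-/- against Pngl Dp/+, PGRP-SA -0.0223 in Pngl-/- against Pngl+/- and 0.0001 in Pngl Dp/+ against Pngl+/-, PGRP-LE -0.1582 and PGRP-LF -0.1098 in Pngl-/- against y w, and PGRP-LC -0.2705 and PGRP-LF -0.2637 in Pngl+/- against y w. In Pngl-/- against Pngl+/-, where PGRP-SA was level, its value was also negative in the likelihood ratio test (-0.0009) and with the replicate block (-0.0045). With TMM factors from all genes or with no filter, PGRP-LC was 0.0292 in Pngl-/- against y w. With TMM from all genes, a minimum of 1 CPM and no filter, PGRP-LA was -0.0619, -0.0238 and -0.0621 in Pngl Dp/+ against Pngl+/-, and PGRP-LE was 0.1070, 0.0439 and 0.1067 in Pngl+/- against y w. The cause was not tested.

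Leaving out 1 library, 276 of 288 values held and 9 changed sign. The number of genes called ranged from 1 to 2 for Pngl Dp/+ against y w (2 without y w replicate 2) and from 0 to 1 for Pngl+/- against y w (0 without y w replicate 1). PGRP-LF ranged from -0.0347 to 0.4491 in Pngl-/- against Pngl+/-, from -0.1279 to 0.3581 in Pngl Dp/+ against Pngl+/- and from -0.1717 to 0.3121 in Pngl+/- against y w, PGRP-SA from -0.0530 to 0.0493 in Pngl-/- against Pngl+/-, and PGRP-LA from -0.0366 to 0.0693 in Pngl Dp/+ against Pngl+/-. The labels number the replicates and do not say whether the numbers pair the samples. Same-numbered deviations correlated from -0.204 (Pngl Dp/+ with y w) to 0.384 (Pngl Dp/+ with Pngl+/-), which does not settle whether some libraries are paired. With a replicate block 3 genes were called in Pngl-/- against y w and 2 against each other control, as without it. A crossed pairing of Pngl Dp/+ and y w, added after the data were seen, gave 1 call, the same number. PGRP-LF and PGRP-LD, the genes with the fewest reads, are where depth limits the comparison most.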
